A study of Mus musculus with 10 samples.

Results

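A set of 40 genes of the actin cytoskeleton was followed in group 2 innate lymphoid cells (ILC2) of the mouse lung with and without the transcription factor c-Maf. ILC2 live in tissues, carry no antigen receptor and make type 2 cytokines. The 40 genes were chosen by name for what their products do, and all 40 were found among the 54838 genes of the count table. The cells were sorted from lungs inflamed with papain, a protease allergen, by CD90.2 and the lack of lineage markers, whatever their ST2 and KLRG1, and their total RNA was sequenced. There were 5 wild-type (WT) and 5 c-Maf KO libraries, all of cohoused C57BL/6 littermates that had papain-induced inflammation. The sources used here do not give how c-Maf was deleted, any Cre driver, or the age and sex of the mice. Libraries are numbered 1 to 5 in the order of deposit, and since the labels do not tie each one to its own animal, the p-values reflect spread among libraries that may be technical.

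Actin exists as single molecules and as filaments that grow at one end and are taken apart at the other. Profilin and thymosins hold the single molecules, the Arp2/3 complex and formins start new filaments, capping protein stops their growth, and cofilin with its helpers cuts them. Small GTPases such as Rac and Cdc42, switched on by DOCK proteins and other exchange factors, decide where filaments form. Lymphocytes use this machinery to crawl through tissue, and loss of WAS, DOCK2, DOCK8, CORO1A or RAC2 is known to cause immune deficiency.

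The WT libraries held 21400938 to 24489987 counts and the KO libraries 3620002 to 9867580. Libraries of a group differed by more than sampling noise in every pair. Levels are given as CPM (counts scaled to 1000000 per library) scaled by TMM, a method that sets a common scale from genes that change little. These scaling factors do not overlap: WT libraries had 1.462 to 1.908, KO libraries 0.1803 to 0.9276. Of the tested genes, 54.57 to 81.96% had at most 3 counts (called missing here) in a KO library, against 0.6943 to 3.511% in a WT library. Maf, the targeted gene, had 1412 to 3832 counts in WT and 0, 0, 0, 108 and 0 in KO libraries 1 to 5, which did not pass with edgeR (adjusted p = 0.141). All 12 ILC2 markers had over 3 counts in every WT library and 8 of them, Gata3, Il1rl1 and Rora among them, in every KO library. The exceptions were Klrg1, Il5, Areg and Nmur1, and Nmur1 had at most 2 counts in any KO library. Of the 12, 1 was lower in KO by edgeR. KO library 1 stands apart: erythroid markers took 905585 of its 4757345 counts, against 435 to 6571 in the other KO libraries and 219 to 584 in WT. The KO libraries are shallower, and scaled by library size alone these markers stood at 120.2 to 190400 CPM in KO. In WT they stood at 9.099 to 24.97 CPM, so every KO library lay above every WT library. All 5 tested erythroid markers were higher in KO by edgeR, and their part in the results below was not tested. Acta2, the actin of smooth muscle, had 1 count in all 10 libraries together, so the actins below are the cytoplasmic ones.

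Of the 40 genes, 39 had enough counts for edgeR's quasi-likelihood test. Of these, 1 fell in KO (Gsn), 0 rose and 38 did not pass the adjusted threshold of 0.05. Over all 7490 genes tested, 27.1% were lower in KO and 1.5% higher. At an unadjusted p under 0.05, 3 of the actin genes were lower (Gsn, Wasf2 and Was) and 0 were higher. Their log2 fold changes ran from −7.40 to 2.89 with a median of 0.22, beside a median of −0.47 over all tested genes. The standard errors of the actin genes' log2 fold changes were 0.815 to 1.96, and a p above the threshold does not show an unchanged level. The signs depend on the scaling: 23 of 39 were positive with TMM, 27 with RLE (median-of-ratios) factors and 7 when only library size was used. Relative to TMM, RLE moved the median of all tested genes by 0.56 and library size alone by −1.30. With TMM, 12 of the 23 positive values turned negative when 1 KO library was left out. Fewer cells and less RNA per cell cannot be told apart in such bulk libraries.

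**Figure D1:**
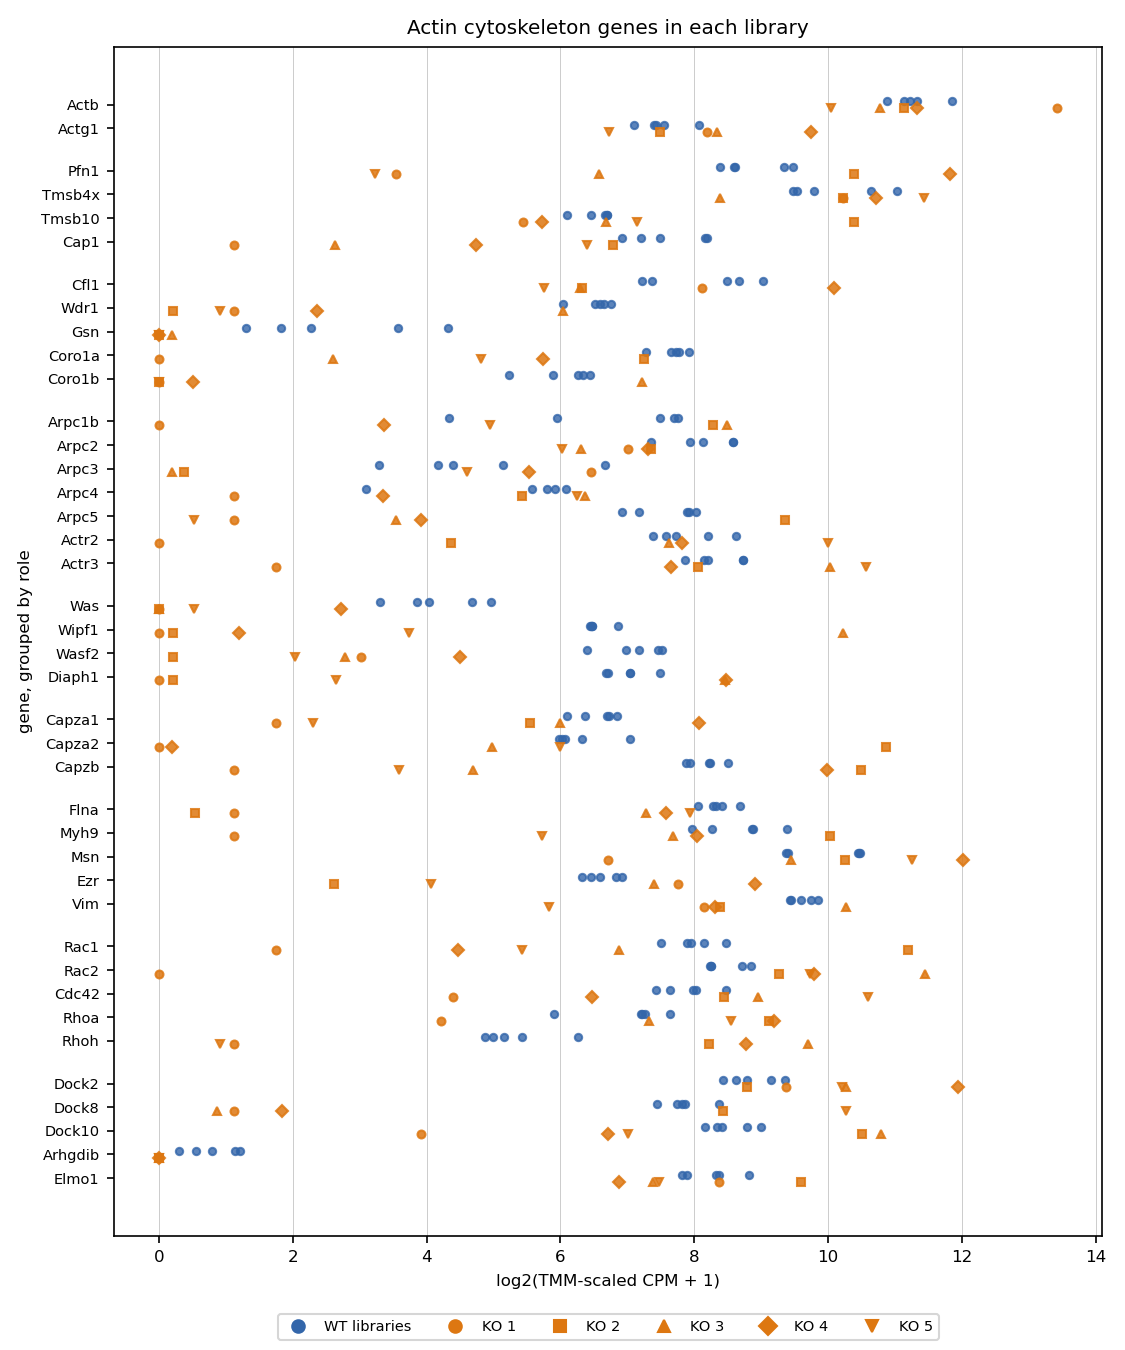
Level of each of the 40 actin cytoskeleton genes in every library, as log2(TMM-scaled CPM + 1), grouped by role; blue circles are the 5 WT libraries and orange symbols the 5 KO libraries by number. WT points sit close together for most genes, while KO points of 1 gene often spread from 0 to above every WT library.

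The actin genes are abundant in WT. Only 3.858% of the tested genes were at or above the median actin gene in WT CPM. Of 710 genes of at least 100 CPM in WT, 0.986% were lower in KO, and of the 27 actin genes in that range 0 were. In the 5 KO libraries, 24% of the 200 pairs of an actin gene and a library were missing, against 64.05% of such pairs over all tested genes. At like WT levels the shares were closer. At 50 to 100 CPM, 34.29% of pairs were missing for 7 actin genes and 40.24% for all tested genes, and at 200 to 500 CPM 14.44% for 18 actin genes and 8.037% for all. At 10 to 50 CPM the gap was wider, at 45% for 4 actin genes and 69.2% for all. Of the 40 genes, 15 had over 3 counts in every KO library, 13 were missing from 1, 7 from 2, 1 from 3, 2 from 4 and 2 from all 5. Over the 39 tested genes, the WT level and the number of KO libraries without the gene had a Spearman rank correlation of −0.65, a description over genes that share these libraries.

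**Figure D2:**
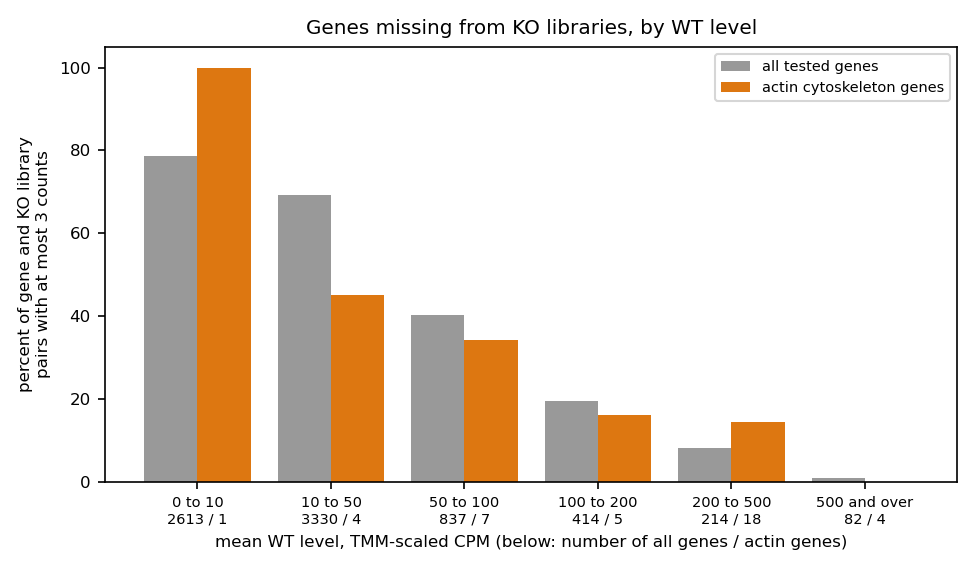
Share of gene and KO library pairs with at most 3 counts, in percent, for all tested genes (grey) and the tested actin genes (orange), by mean WT level in TMM-scaled CPM. The share falls with the WT level in both sets, from 78.71% of all genes under 10 CPM to 0.9756% at 500 CPM and over.

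Actb and Actg1 encode the β and γ cytoplasmic actins, the building blocks of every filament in these cells. Their coding sequences are both 1128 bases long and 88.7% identical, with a longest shared run of 62 bases, so a read that lies within such a run matches both genes. The first 90 coding bases of each are shown to make this visible, with the 16 positions that differ in capitals (GENCODE M21 transcripts, 5′ to 3′).
Actb: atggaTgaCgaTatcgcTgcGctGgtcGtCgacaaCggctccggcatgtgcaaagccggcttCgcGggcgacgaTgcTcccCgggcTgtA
Actg1: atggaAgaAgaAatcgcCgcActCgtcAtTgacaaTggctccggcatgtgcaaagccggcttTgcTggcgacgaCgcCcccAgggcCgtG
Actg1 also has 6 near-identical loci elsewhere (at least 95% identity over at least 50% of the coding sequence), which together held 275 counts over all libraries.

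Actb (ENSMUSG00000029580, GRCm38 chromosome 5, 142903115 to 142906754, minus strand) stood at 2581, 1894, 3706, 2402 and 2259 CPM in WT libraries 1 to 5. In KO libraries 1 to 5 it stood at 11030, 2245, 1747, 2577 and 1052 CPM. The groups overlap: KO library 1 lies above every WT library, KO libraries 3 and 5 below, and the others within. The log2 fold change was 0.54 (SE 0.815, adjusted p = 0.689). It turned to −1.48 with library size alone, under which every KO library lay below every WT library, and to −0.39 without KO library 1, while RLE gave 2.41 and DESeq2 2.31. Actg1 (ENSMUSG00000062825, chromosome 11, 120345690 to 120348542, minus strand) stood at 136.5, 168.0, 267.9, 186.4 and 171.5 CPM in WT and at 291.8, 179.3, 322.8, 857.2 and 105.1 CPM in KO. In 3 KO libraries Actg1 was above every WT library and in KO library 5 below (log2 fold change 0.92, SE 1.14, adjusted p = 0.617). Per kb of exon, Actb stood 11.19 to 18.76 times as high as Actg1 in the WT libraries. That ratio was 37.51, 12.43, 5.371, 2.982 and 9.926 in KO libraries 1 to 5, so the balance of the 2 actins varied more among KO than among WT libraries. It needs no scaling between libraries.

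Among the proteins that hold single actin molecules, Tmsb4x and Tmsb10 encode thymosins β4 and β10, small peptides of 44 residues each. Their coding sequences share 70.4% of positions and no run longer than 10 bases. They are printed whole, with the 40 differing positions in capitals.
Tmsb4x: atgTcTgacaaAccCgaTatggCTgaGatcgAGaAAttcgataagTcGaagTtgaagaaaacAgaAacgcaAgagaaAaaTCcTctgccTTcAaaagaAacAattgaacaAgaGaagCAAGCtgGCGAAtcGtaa
Tmsb10: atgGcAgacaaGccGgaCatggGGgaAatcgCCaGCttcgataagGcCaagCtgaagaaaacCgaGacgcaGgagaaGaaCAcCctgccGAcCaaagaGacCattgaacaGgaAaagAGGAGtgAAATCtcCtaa

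Tmsb4x (ENSMUSG00000049775, chromosome X, 167207093 to 167209315, minus strand) stood at 887, 712.5, 1596, 2083 and 739.7 CPM in WT and at 1200, 1195, 335.1, 1688 and 2761 CPM in KO. Of its KO libraries 1 lay above, 1 below and 3 within the WT range (log2 fold change 0.25, SE 0.903, adjusted p = 0.876). Tmsb10 had 67.2 to 103.2 CPM in WT and 42.4 to 1337 CPM in KO, and KO library 2 held 8916 of its 10378 KO counts. Pfn1, which encodes profilin 1 and feeds actin to growing filaments, ran from 333.3 to 708.7 CPM in WT. Its KO values were 10.6, 1339, 94.8, 3644 and 8.3 CPM, with 2 libraries above and 3 below every WT library. Cap1, the cyclase-associated protein that recycles actin released by cofilin, stood at 119.8 to 292.2 CPM in WT and at 1.2 to 108.8 CPM in KO. All 5 KO libraries of Cap1 were below every WT library, while its log2 fold change of −2.19 (SE 1.44) did not pass with edgeR (adjusted p = 0.309).

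Of the 5 genes that take filaments apart or mark them for it, Gsn fell. Gsn encodes gelsolin, which cuts filaments and caps the new ends. It lies on chromosome 2 (ENSMUSG00000026879, 35256380 to 35307892, plus strand) and had 51, 172, 361, 860 and 111 counts in WT libraries 1 to 5. In KO libraries 1 to 5 its counts were 0, 0, 1, 0 and 0. The WT counts correspond to 7.54 ± 7.39 CPM (SD, n = 5). The WT libraries themselves differ 13.02-fold, and every KO library lies below the lowest of them. Scaled counts were 186 times as high in WT (95% interval 33.25 to 7334, exact binomial, counting error only), with an edgeR adjusted p of 0.00163. Of the 2613 genes that like Gsn had under 10 CPM in WT, 39.61% fell, and with a filter of 50 counts Gsn was no longer tested. WT library 4, which had most Gsn counts, also had most counts of Lyz2, a macrophage gene, at 672, 2157, 934, 11144 and 31 in WT libraries 1 to 5 and at most 3 in each KO library. Summed over 8 macrophage and dendritic cell markers, the level was 2.366 to 274 CPM in WT and 0 to 35.29 CPM in KO, with Marco at no more than 1 count and Siglecf at no more than 37 in any library. Their part in the Gsn result was not tested.

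The other 4 genes of filament turnover did not pass with edgeR and all libraries. Cfl1 (ENSMUSG00000056201, chromosome 19, 5490455 to 5495201, plus strand), cofilin 1 and the main filament-cutting protein of lymphocytes, stood at 358.4, 405.2, 147.6, 164.8 and 522.9 CPM in WT. In KO it stood at 276.5, 79.2, 77.1, 1092 and 53.0 CPM, so KO library 4 lay above and 3 libraries below the WT range (log2 fold change −0.02, SE 1.22, adjusted p = 0.994). Wdr1, which helps cofilin, had 64.4 to 106.9 CPM in WT, and KO library 3 gave 471 of its 504 KO counts. Without that library Wdr1 passed at a log2 fold change of −5.64 (edgeR adjusted p = 0.0152). Coro1a and Coro1b encode coronins, which guide cofilin and Arp2/3 to filaments. Coro1a stood at 153.6 to 240.9 CPM in WT and 0 to 151.8 CPM in KO, with all 5 KO libraries below every WT library (adjusted p = 0.356). Nearly all KO counts of Coro1b, 1083 of 1086, came from KO library 3. Without that library Coro1b stood at −8.74 and passed (edgeR adjusted p = 0.00603). For Wdr1 and Coro1b, leaving out the library with most KO counts favours a pass as lower. Neither gene passed on leaving out any other single library. With voom and all libraries, Wdr1, Coro1a and Coro1b passed as lower (voom adjusted p = 0.0091, 0.0176 and 0.0216).

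The Arp2/3 complex has 7 subunits that assemble in equal numbers and branch new filaments off old ones; all 7 are among the 40 genes, as Actr2, Actr3, Arpc1b, Arpc2, Arpc3, Arpc4 and Arpc5. None of the 7 passed with edgeR, and their log2 fold changes ran from −1.30 for Arpc2 to 0.87 for Actr3. Actr3 (ENSMUSG00000026341, chromosome 1, 125392905 to 125435727), one of the actin-related cores, stood at 425.5, 232.1, 422.3, 295.4 and 282.3 CPM in WT. In KO it stood at 2.4, 266.0, 1041, 200.6 and 1521 CPM, with libraries 3 and 5 above and libraries 1 and 4 below the WT range (SE 1.26, adjusted p = 0.672). Arpc2, a core subunit that holds the complex together, stood at 162.9 to 382.7 CPM in WT and 64.0 to 161.9 CPM in KO. It had the smallest SD of log2(CPM + 1) among KO libraries of the 7, 0.604, and all its KO libraries were below every WT library (SE 1.16, adjusted p = 0.470).

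The subunit make-up differed from one KO library to the next. Taken per kb of exon, Arpc2 led in 4 WT libraries and Arpc5 in WT library 3, with 29.04 to 47.23% of the counts of the 7 genes. Arpc1a and Arpc5l, other forms of 2 subunits that are read with the other actin genes below, are left out of these shares. Arpc1a had 1423 counts in KO library 3, beside 2620 of Arpc1b. In KO, Arpc2 led in libraries 1 and 4 (65.62 and 40.39%), Arpc5 in library 2 (56.73%) and Actr3 in libraries 3 and 5 (54.69 and 54.46%). Arpc5 held 13.22 to 29.04% in WT and 0.5377, 56.73, 1.141, 3.218 and 0.03192% in KO libraries 1 to 5. KO library 2 gave 4370 of its 4549 KO counts, and without it Arpc5 passed as lower at −4.89 (edgeR adjusted p = 0.0231). Leaving out the library with most KO counts favours that pass, and Arpc5 did not pass on leaving out any other single library. With voom and all libraries Arpc5 passed as lower (−5.22, voom adjusted p = 0.0139). In KO library 1 the 7 subunits together had 187 counts and 5 of them were missing, against 44249 to 54041 counts in a WT library. WT libraries also differed in some subunits: Arpc3 ran from 8.8 to 100.9 CPM, Arpc1b from 19.1 to 214.3 CPM and Arpc4 from 7.5 to 67.0 CPM.

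**Figure D3:**
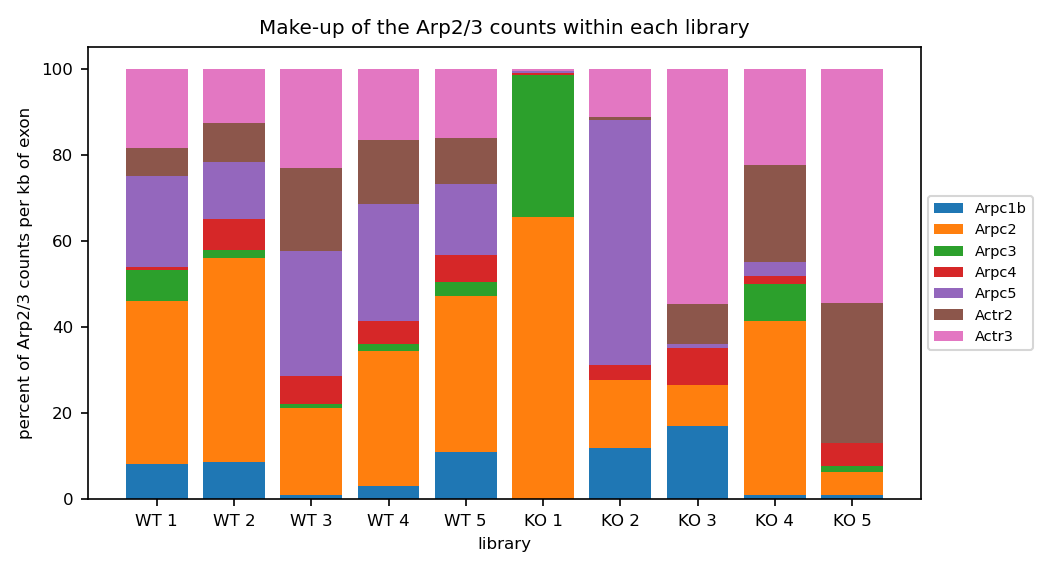
Make-up of the Arp2/3 complex in each library: the percent of the counts per kb of exon of its 7 genes in the set that fell on each gene, 1 bar per library. Arpc1a and Arpc5l are left out. The WT bars are led by Arpc2 or Arpc5 with 29.04 to 47.23%, while Arpc2 takes 65.62% in KO library 1, Arpc5 56.73% in KO library 2 and Actr3 54.69 and 54.46% in KO libraries 3 and 5.

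Wasf2 and Was switch Arp2/3 on: WAVE2, the product of Wasf2, works at the leading edge under Rac, and WASP, the product of Was, works under Cdc42. Wasf2 (ENSMUSG00000028868, chromosome 4, 133130505 to 133199756) stood at 144.0, 175.1, 125.7, 83.5 and 183.0 CPM in WT. In KO it stood at 7.1, 0.2, 5.9, 21.5 and 3.1 CPM, all below every WT library. Its log2 fold change of −4.23 (SE 1.60) missed the threshold with edgeR (adjusted p = 0.0572). It passed at −5.64 with library size alone (0.0138), at −3.43 with DESeq2 (0.0103), at −5.08 with voom (0.0059), and without KO library 2 or 4 (0.0425 and 0.0299). With edgeR Wasf2 did not pass with RLE (−3.31, 0.125), no filter (0.0521) or a minimum of 50 counts (0.0733). Nor did it pass without any 1 WT library (0.0961 to 0.121) or without KO library 1, 3 or 5 (0.0533, 0.06085 and 0.0628). Was had 8.9 to 30.2 CPM in WT and 0, 0, 0, 39 and 1 counts in KO (log2 fold change −3.86, SE 1.60, adjusted p = 0.0874). On leaving out KO library 4, which held 39 of its 40 KO counts, Was passed at −7.54 (edgeR adjusted p = 0.00595), and that choice favours a pass. Was passed with library size alone, DESeq2 and voom as well (0.0394, 0.0492 and 0.022). With edgeR it did not pass with RLE (0.0909), no filter (0.0937), a minimum of 50 counts (0.102) or any other single library left out.

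Wipf1, which encodes the partner that stabilizes WASP, had its counts elsewhere: 8768 of its 8806 KO counts came from KO library 3, where Was had 0. There Wipf1 stood at 1201 CPM, against 86.2 to 115.8 CPM in WT (log2 fold change 1.39, SE 1.87, adjusted p = 0.647). Diaph1, a formin that builds straight filaments, had 102.1 to 178.9 CPM in WT. It stood at 349.8 and 356.4 CPM in KO libraries 3 and 4 and at 5.3 CPM or less in the other 3 (log2 fold change 0.14, SE 1.69, adjusted p = 0.969).

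Capping protein is a pair of an α subunit, from Capza1 or Capza2, and the β subunit from Capzb. Capzb (ENSMUSG00000028745, chromosome 4, 139192899 to 139291818) stood at 361.5, 301.6, 233.2, 242.9 and 298.3 CPM in WT and at 1.2, 1445, 24.9, 1014 and 11.0 CPM in KO. Libraries 2 and 4 were above and the other 3 below every WT library (log2 fold change 0.80, SE 1.45, adjusted p = 0.745). Libraries 2 and 4 differed in the α subunits. Capza2 had 12475 of its 12841 KO counts in library 2 and 1 count in library 4, while Capza1 had 1877 of its 2651 in library 4 and 303 in library 2. Neither α gene passed with edgeR (adjusted p = 0.91 for Capza1 and 0.408 for Capza2).

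Flna and Myh9 encode filamin A, which links filaments into a mesh, and the heavy chain of non-muscle myosin II, which pulls on them. Flna stood at 264.5 to 409.1 CPM in WT and 0.4 to 245.3 CPM in KO, below every WT library in 5 of 5 (log2 fold change −1.47, SE 1.46, adjusted p = 0.519). Myh9 stood at 250.3 to 671.6 CPM in WT and 1.2 to 1042 CPM in KO. Msn and Ezr encode moesin and ezrin, which tie filaments to the cell membrane. Msn (ENSMUSG00000031207, chromosome X, 96096042 to 96168552) stood at 1405, 1424, 673.6, 662.0 and 1396 CPM in WT and at 103.5, 1215, 699.4, 4133 and 2440 CPM in KO. Of the KO libraries of Msn, 2 were above, 2 within and 1 below the WT range (log2 fold change 0.63, SE 0.982, adjusted p = 0.699). Ezr ran from 79.4 to 120.4 CPM in WT and from 5.1 to 481.2 CPM in KO. Vim encodes vimentin, the intermediate filament protein of lymphocytes. It stood at 690.1 to 921.1 CPM in WT, and in KO at 283.5, 332.6, 1235, 316.8 and 56.1 CPM, below the WT range in 4 of 5 (log2 fold change −0.83, SE 1.05, adjusted p = 0.625).

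Rac1 and Cdc42 had positive log2 fold changes with TMM, 0.95 and 1.01, that did not pass and turned negative with library size alone. Each sign also rested on 1 library: Rac1 stood at −2.43 without KO library 2 and Cdc42 at −0.06 without KO library 5. Rac2 (ENSMUSG00000033220, chromosome 15, 78559167 to 78572783, minus strand), the Rac of blood cells, stood at 460.6, 305.1, 301.7, 303.7 and 421.2 CPM in WT. In KO it was at 0 in library 1 and at 615.0, 2788, 886.7 and 852.5 CPM in libraries 2 to 5, so 4 KO libraries lay above every WT library and 1 below. Its log2 fold change was 1.52 (SE 1.32, adjusted p = 0.460). Without KO libraries 1 and 5 Rac2 passed as higher (1.95, edgeR adjusted p = 0.0401). Leaving out library 1, where Rac2 was at 0, favours that pass. Rac1, its widely expressed relative, had 15591 of its 16689 KO counts in library 2, against 148 in library 4. The 2 genes are 77% identical in their coding bases with no shared run over 29 bases.

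Rhoh, a GTPase of blood cells that does not split GTP, showed the largest positive value. It stood at 28.2 to 75.9 CPM in WT, at 298.4, 829.6 and 434.7 CPM in KO libraries 2 to 4, and was nearly absent from libraries 1 and 5 (1 and 2 counts). The log2 fold change was 2.89 (SE 1.63, adjusted p = 0.225). Rhoh passed as higher with DESeq2 (3.17, adjusted p = 0.0472) and without KO libraries 1 and 5 (3.56, edgeR adjusted p = 0.0107). The second pass is favoured by leaving out the libraries where Rhoh was nearly absent. Cdc42, which sets cell polarity, and Rhoa, which drives contraction, had over 3 counts in every KO library. Cdc42 ran from 171.3 to 355.7 CPM in WT and from 1550 CPM down to 17 counts in KO. Rhoa ran from 59.0 to 199.1 and from 17.6 to 585.5 CPM.

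Of the regulators of small GTPases, Dock2 and Elmo1 encode partners in 1 exchange factor that turns on Rac in migrating lymphocytes, and both were seen in every KO library. Dock2 (ENSMUSG00000020143, chromosome 11, 34226815 to 34783892) stood at 651.9, 568.7, 345.2, 392.4 and 440.0 CPM in WT and at 663.5, 441.6, 1238, 3934 and 1184 CPM in KO. In 4 KO libraries Dock2 was above every WT library and in 1 within the range (log2 fold change 1.64, SE 0.975, adjusted p = 0.256). Dock2 passed as higher with DESeq2 (2.28, adjusted p = 0.0221), which called 13.5% of the genes it tested higher and 23.3% lower. Elmo1 stood at 224.5 to 452.0 CPM in WT and 116.5 to 773.0 CPM in KO (log2 fold change 0.00, SE 1.11, adjusted p = 0.999). Dock8 and Dock10 encode exchange factors for Cdc42, and Dock10 also acts on Rac. Dock8 had 173.4 to 330.4 CPM in WT, stood at 344.9 and 1229 CPM in KO libraries 2 and 5 and had 1, 6 and 18 counts in the others. Dock10 had 285.8 to 511.1 CPM in WT and 14.1 to 1769 CPM in KO. Neither passed with edgeR (adjusted p = 0.882 and 0.667).

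Arhgdib, which encodes a GDP-dissociation inhibitor of blood cells, was the gene too weak for the test. It had 10 to 59 counts in a WT library and 0 in every KO library, at least 6.29-fold lower when the KO libraries together are set to a floor of 3 counts. Of its exon bases, 89.63% lie within the span of Pde6h on the opposite strand, introns included, and 7.967% within its exons. The library kit keeps strand, and the sources used here do not give the strand setting of the counting. With all libraries Arhgdib did not pass with DESeq2 (adjusted p = 0.143) or with edgeR and no filter on low counts (0.0621). With 1 KO library fewer in the comparison the filter let Arhgdib in, and it passed (edgeR adjusted p = 0.0241 to 0.0408). As Arhgdib had 0 counts in every KO library, its entry rested on the WT counts alone, and these passes add no support. The genes of the set with over 10% of their exon bases in exons of a neighbour are Rac1 (51.36%, opposite strand), Arpc1b (18.2%, opposite strand), Cfl1 (16.46%, opposite strand), Coro1b (13.48%, same strand) and Arpc4 (12.19%, same strand). Their counts are uncertain to that extent.

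**Figure D4:**
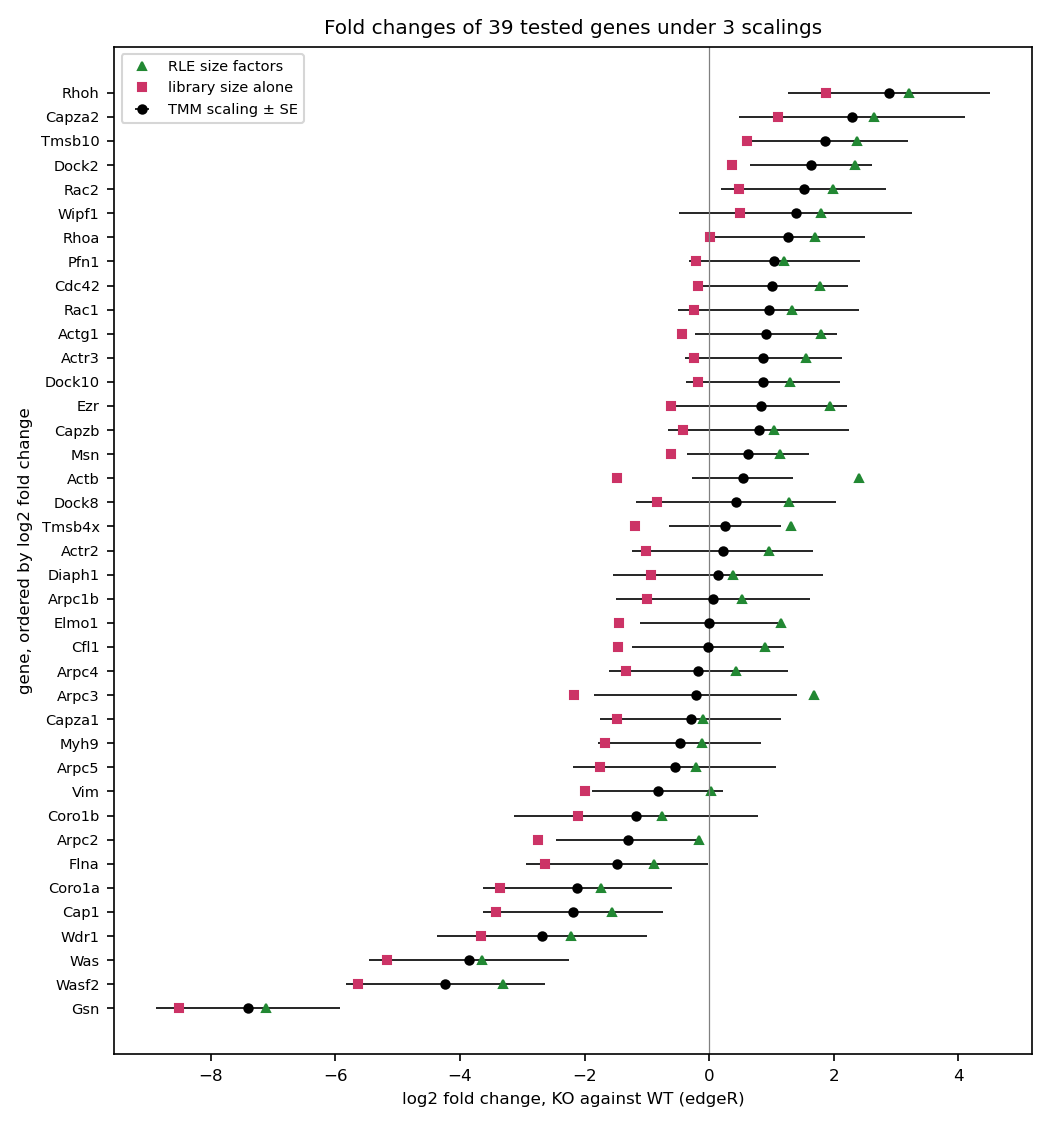
edgeR log2 fold change of KO against WT for the 39 tested actin genes, with TMM scaling (black, bars show ± SE), RLE size factors (green triangles) and library size alone (red squares). Gsn, Wasf2 and Was lie lowest under all 3 scalings, at −7.40, −4.23 and −3.86 with TMM, and Rhoh highest with TMM at 2.89.

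Every KO library was below every WT library for 7 of the 39 tested genes (Cap1, Gsn, Coro1a, Arpc2, Was, Wasf2 and Flna), beside 28.9% of all tested genes. The reverse held for 0 of 39, beside 0.774%. With library size alone the 7 became 10, with Actb, Wdr1 and Vim added, beside 37.1% of all tested genes. The count of genes that fell also moved with the test: 3 with library size alone (beside 31.1% of all genes), 3 with DESeq2 (beside 23.3%) and 11 with voom (beside 33.2%). The 11 with voom were Gsn, Wasf2, Was, Cap1, Wdr1, Coro1a, Coro1b, Arpc5, Flna, Wipf1 and Diaph1. Leaving out any single KO library raised it to between 2 and 4, while the count over all genes rose from 2027 to between 3021 and 3350. In each of these fits Arhgdib, let in by the filter, was among the genes added, and without KO library 1 or 5 it was the only one. The set of tested genes thus changed as well, so these counts are not on the same base. Without KO libraries 1 and 5 there were 2 lower (Gsn, and Arhgdib through the filter) and 2 higher, beside 3291 lower and 348 higher over all genes.

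The KO libraries also differed more among themselves. The median SD of log2(CPM + 1) of the tested actin genes was 0.41 among WT libraries and 2.68 among KO libraries, and 38 of 39 varied more in KO. Over all tested genes those medians were 0.76 and 2.31. A median of 64.4% of an actin gene's KO counts came from 1 library, beside 90.92% over all tested genes with a KO count. The leading library was KO 4 for 15 genes, KO 3 for 13, KO 2 for 9, KO 5 for 2 and KO 1 for 0.

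Each KO library had its own leading genes. Per kb of exon, Actb and Tmsb4x were the top 2 of the 40 genes in all WT libraries. In KO library 1, Actb alone took 73.88% of the set's counts per kb and 23 of the 40 genes were missing. Tmsb10 led in KO library 2, Rac2 in library 3, Pfn1 in library 4 and Tmsb4x in library 5, where 10, 4, 4 and 7 genes were missing. As a share of all counts, the 40 genes made up 2.19 ± 0.18% in WT and 1.17 ± 0.58% in KO (mean ± SD, n = 5 each). Every KO library (0.2634 to 1.697%) was below every WT library (1.983 to 2.386%), and the share was lowest in KO library 1, where erythroid markers were highest. On this scale of library size alone, 37.1% of all tested genes, taken singly, also had every KO library below every WT library. The summed share of other genes of like WT level was not computed, so whether the fall is particular to the set was not tested.

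Beyond the 40, a list of 89 other actin genes was read in the same fit. Of its 75 tested genes, 12 fell (16%, beside 27.1% of all tested genes), 0 rose and 63 did not pass, with a median log2 fold change of −0.08. Those that fell with the smallest p were Nckap1 and Brk1, 2 subunits of the complex that holds WAVE proteins, Twf2, a twinfilin that binds single actin, Fmnl3, a formin, Evl, a filament elongator, and Limk2, the kinase that turns cofilin off. Brk1 went from 5412 WT counts to 1 KO count (ratio 646, 95% interval 115.9 to 25510, edgeR adjusted p = 0.00163). Nckap1 had 1555 and 1 (ratio 186, 95% interval 33.25 to 7334, adjusted p = 0.00163) and Twf2 3158 and 1 (ratio 377, 95% interval 67.59 to 14890, adjusted p = 0.00174). Evl had 2451 and 3 counts (ratio 97.49, 95% interval 33.32 to 473.1), Fmnl3 3394 and 6, and Limk2 2837 and 10. Their WT means were 8.057 to 27.85 CPM, levels at which 28.2 to 39.61% of genes fell. By class, 2 of 15 genes around Arp2/3, 3 of 9 formins and elongators, 3 of 10 turnover genes and 1 of 18 crosslinkers fell. At an unadjusted p under 0.05 edgeR had 15 lower and 5 higher, and 6 were called higher with DESeq2 and 0 with voom. Gmfg, Tpm2, Myl12a, Myl12b and Rhof were at 0 in every library. Whether these zeros come from the cells or from how reads were counted was not tested.

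The start sites of the genes were read for 3 motifs: the CArG box, which binds SRF and marks many actin genes, TGCTGA, the core bound by MAF proteins, and the T-MARE. The T-MARE is a full MAF element in which TGCTGA and its reverse complement are joined by 1 base. Full elements with any other spacing were not searched. RefSeq promoters of GRCm38.p6 were found for 35 of the 40 genes (none for Actb, Coro1b, Diaph1, Rac1 and Rac2), and the 250 bases before the start were searched on both strands. A CArG box lies in 1.47% of all 32851 promoters and in 2 of the 47 promoters of the 35 genes (4.26%), those of Actg1 and Arpc4. TGCTGA lies in 16.1% of all promoters and in 4 of the 47 (8.51%), those of Capzb, Coro1a, Myh9 and Tmsb10. The T-MARE lies in 2 of all promoters and in 0 of the 47. The stretch around 4 of the 7 matches, 1 for each of 4 genes, is shown 5′ to 3′ on the gene's strand, with the matched letters in capitals (TGCTGA reads TCAGCA where it lies on the other strand). They are shown because c-Maf belongs to the MAF family; a match in letters is a description, not a site.
Actg1, chr11:120348551-120348610, minus strand: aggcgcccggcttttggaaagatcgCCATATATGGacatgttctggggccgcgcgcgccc
Coro1a, chr7:126704868-126704923, minus strand: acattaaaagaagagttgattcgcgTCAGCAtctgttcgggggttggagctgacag
Myh9, chr15:77842297-77842352, minus strand: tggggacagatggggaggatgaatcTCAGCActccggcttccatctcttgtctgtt
Capzb, chr4:139193987-139194042, plus strand: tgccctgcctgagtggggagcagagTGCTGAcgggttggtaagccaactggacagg
Of the 4 genes with TGCTGA, 0 passed with edgeR, and their log2 fold changes ran from −2.11 for Coro1a to 1.86 for Tmsb10.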

How the data were processed

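Total RNA of sorted lung ILC2 was sequenced in 5 WT and 5 c-Maf KO libraries. The deposited values are raw counts per gene, made by the authors with STAR 2.6.0c, SAMtools 1.8 and HTSeq 0.9.1 on GRCm38, per the submitters' processing notes; the gene annotation release is not given in the sources used here. Gene positions came from GENCODE M21. Groups came from the genotype labels, and replicate numbers are only names. Counts were tested with edgeR 4.0.16 in R 4.3.3 (quasi-likelihood test, TMM, filterByExpr with a minimum of 10 counts, Benjamini-Hochberg adjustment over all genes kept, threshold 0.05), and the script was tested on simulated data. The SE is the log2 fold change divided by the square root of F. Alternatives were DESeq2 1.42.0, voom (limma 3.58.1), scaling by RLE or by library size alone, other count filters and leaving out libraries; leaving out KO libraries 1 and 5 together was chosen after seeing the data. All 40 genes are named whatever their result, and of the other actin genes up to 6 in each direction, those with the smallest p among genes past the threshold, of which 0 were higher. The genes and lists were chosen with earlier results of these data known. Totals of 3620002 to 24489987 counts per library set the precision, and intervals cover counting error only. The counts of 1 gene group are not reported here.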

Additional observations from a re-analysis of the deposited data

Results flagged for a closer look

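In each gene and group of 5 libraries, the most extreme library was compared with the others on the log2(CPM + 1) scale, and 7 of 80 groups had one far apart (Dixon's ratio above 0.71). Chance gives about 1 in 20 such groups. In KO, Gsn stood at 0.1852 in library 3 with the others at 0. Coro1b stood at 7.2222 in KO library 3, against 0 to 0.51 in the others. Was stood at 2.7138 in KO library 4, against 0 to 0.52. Rac2 stood at 0 in KO library 1, against 9.27 to 11.45. The other 3 were all in WT library 1, where Arpc4 stood at 3.0932 (5.58 to 6.09 in the others), Rhoa at 5.9058 (7.20 to 7.64) and Wipf1 at 6.8674 (6.45 to 6.48).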

How the results depend on the processing

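Over 17 settings and 662 pairs of a tested actin gene and a setting, 638 had no change of call (3 of them, with DESeq2, had no adjusted p), 22 newly passed, 0 lost a call and 2 turned direction with a call. A direction was counted as turned only where a value was called; the sign alone differed in 86 pairs, 16 of them with library size alone and 15 with voom. With voom, Wipf1 stood at −4.71 (adjusted p = 0.0459) and Diaph1 at −4.78 (adjusted p = 0.0405). The count of actin genes lower in KO, 1, became 3 with library size alone, 3 with DESeq2, 11 with voom, 0 with a minimum of 50 counts, 2 without KO libraries 1 and 5, and 1 to 4 on leaving out single libraries; Gsn was not tested at a minimum of 50. Wherever KO libraries were left out, Arhgdib was let in by the filter and is among the genes counted as lower. The count higher, 0, became 2 with DESeq2 and 2 without KO libraries 1 and 5. Their median log2 fold change, 0.22, became 1.14 with RLE size factors, −1.02 with library size alone, 1.05 with DESeq2, −1.53 with voom, −0.17 with no filter, and 0.05998 to 0.4051 on leaving out single libraries. For the other actin genes, the 12 lower became 23 with voom, 7 with a minimum of 50 counts and 9 to 20 on leaving out single libraries. The 0 higher became 2 with RLE size factors, 6 with DESeq2, 2 with no filter, 3 without KO libraries 1 and 5, and 0 to 5 on leaving out single libraries. For all genes, the 2027 lower became 1173 with a minimum of 50 counts, 3291 without KO libraries 1 and 5, and 1734 to 3350 on leaving out single libraries. The 112 higher became 193 with RLE size factors, 49 with library size alone, 1512 with DESeq2, 71 with voom, 2345 with no filter, 50 with a minimum of 50 counts, 348 without KO libraries 1 and 5, and 82 to 333 on leaving out single libraries. The cause was not tested. No paired analysis was possible because the labels give no replicate numbers shared by the groups. KO libraries are shallower than WT libraries, so depth and genotype cannot be told apart.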
